A study of Mus musculus with 21 samples.

Results

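Prr14 and Fbrs are 2 neighbouring genes on mouse chromosome 7. Of PSME3 peaks in every replicate of cycling myoblasts, the highest in fold enrichment covers the beginning of Fbrs and part of the space before it. The 2 genes were chosen from 49997 annotated genes because of that peak, and all PSME3 and H3K4me3 peaks within 5 kb of either gene were collected. The choice used the PSME3 fold enrichment of the pooled cycling list. Of its 5812 peaks, 228 (3.92%) had a peak in all 3 cycling replicates, and among those 228 the pooled fold enrichment was 20.1 at this site, 8.79 at the next and 6.96 at the one after, with a median of 3.87. PSME3 values at the site are therefore given as a description.

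The libraries were made by CUT&RUN, in which an antibody directs a nuclease to cut out the DNA around a chromatin protein so that the released fragments can be sequenced. The cells were C2C12, an established mouse myoblast line. Cycling cells were grown in DMEM with 20% FBS and were frozen in 10% DMSO without fixation, and 3 replicates each were made with the PSME3 and the H3K4me3 antibody. Day 2 cells were grown to confluency and kept in 2% horse serum for 48 hours, and 1 library of each antibody was made from each of 4 preparations, which were cells used fresh or after freezing, either native or crosslinked. Crosslinked cells were held in 0.1% formaldehyde for 5 min. Frozen native is thus the only day 2 preparation handled like the cycling cells, and it has 1 library per antibody, so preparation and library cannot be told apart on day 2. Of the 21 libraries, the 7 made with IgG were not analysed here. Cycling libraries were also given as pooled peak lists, which are the authors' own calls.

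The cell type was checked by H3K4me3 within 1 kb of marker genes. All 5 myoblast genes examined (Myod1, Myf5, Des, Cdh15 and Chrna1) had the mark in all 3 cycling and all 4 day 2 libraries, and the 3 differentiation genes (Myog, Mymk and Myh3) had it in 0 of 3 cycling and 4 of 4 day 2 libraries. Of 5 genes of other cell types, Ptprc, Alb and Epcam were without it in every library, Pou5f1 had it in 1 cycling library, and Tubb3 had it in all 7. PSME3 lists held 776 to 3070 peaks per cycling replicate and 18 to 186 per day 2 preparation, and H3K4me3 lists 18077 to 40999 and 14372 to 20245. H3K4me3 replicate 2 stood apart, with the 40999 peaks and a median width of 662 bp beside 1781 and 1784 bp in replicates 1 and 3. The lists give no read numbers, so depth is unknown, and fold enrichment was ranked within a list. Where it is set beside that of another list, as a value, a mean over replicates or a ratio to the list median, the lists differ in depth and number of peaks by an amount that was not tested.

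PSME3, also called PA28 gamma or REG gamma, is a nuclear activator of the proteasome that works without ubiquitin, and it has been tied to the upkeep of several nuclear structures. H3K4me3 is a histone mark that flanks the start sites of active genes. Prr14 encodes a protein of the nuclear lamina that binds heterochromatin protein 1 and thereby tethers heterochromatin to the nuclear periphery. Fbrs encodes fibrosin, a relative of Auts2, and proteins of this family are found in noncanonical Polycomb repressive complexes.

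In the RefSeq annotation of GRCm38.p6, Prr14 (gene 233895) spans chr7:127466324-127476767 and Fbrs (gene 14123) spans chr7:127478415-127491513. Both are protein-coding and both are read from the + strand, so the 1647 bp between them separate the end of Prr14 from the beginning of Fbrs. The annotated start site used for Prr14 lies at 127471614, 5290 bp inside its span, and that of Fbrs at 127478958, 543 bp inside its span and 7344 bp from the Prr14 start site. The bases before both start sites are shown because the PSME3 peak with the highest pooled fold enrichment covered those of Fbrs and another, which ranked 211 of 5812, covered most of those of Prr14. They are RefSeq sequences of the + strand of GRCm38.p6, each the 250 bases that end just before the start site, Prr14 at chr7:127471364-127471613 and Fbrs at chr7:127478708-127478957. Capitals mark the letters CCAAT or their complement ATTGG in Prr14 and the word TTAAAGGG in Fbrs.
Prr14: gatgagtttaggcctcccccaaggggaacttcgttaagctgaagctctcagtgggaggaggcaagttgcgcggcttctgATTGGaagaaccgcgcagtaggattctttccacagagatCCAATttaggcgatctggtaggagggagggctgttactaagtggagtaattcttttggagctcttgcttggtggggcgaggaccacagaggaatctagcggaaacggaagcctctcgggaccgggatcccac
Fbrs: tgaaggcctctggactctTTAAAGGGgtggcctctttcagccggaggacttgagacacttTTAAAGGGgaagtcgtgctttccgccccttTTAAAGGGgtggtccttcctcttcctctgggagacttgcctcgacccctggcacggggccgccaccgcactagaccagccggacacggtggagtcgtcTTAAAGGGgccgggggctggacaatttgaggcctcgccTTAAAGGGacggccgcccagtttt

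The word TTAAAGGG occurred 5 times before the Fbrs start site, its first bases 232, 190, 160, 62 and 24 bp from it. It was picked after the sequence was seen, as the 8-base word repeated most often there. Of 32851 RefSeq promoter windows of 300 bases, 217 (0.661%) held the word on the strand of the gene, 1.69% held it on either strand, and 1, that of Fbrs, held 5 copies. Repetition of some 8-base word to this extent was rare but not unique, since 285 windows (0.868%) held a word in 5 or more copies that did not overlap. In the Prr14 window the most repeated 8-base word occurred 2 times, and 74.5% of windows held some word at least as often. Of the 217 windows that held the word, 28 (12.9%) overlapped a pooled PSME3 peak, beside 3422 of all 32851 (10.4%). This is a description of letters and does not show that a protein binds them.

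Of 8 motifs searched on both strands, 2 were found. GGGCGG, the letters bound by the SP and KLF factors, occurred 2 times before the Fbrs start site, both as CCGCCC at 169 and 12 bp, and was absent from the Prr14 window (35.7% of windows hold it). CCAAT, the letters of NF-Y, occurred 2 times in Prr14, at 132 and 171 bp before its start site, and not in Fbrs (37.4% of windows). The other motifs were in neither window. They were the ETS factor letters CCGGAAG, held by 8.86% of windows, the letters of the factor NRF1, which read CATGCGC (3.91%), and those of the factor YY1, which read ATGGCGG (4.05%). They were also the TATA box, searched for as TATAAA (13.6%), the E-box of the proteins MYC and MAX, which reads CACGTG (7.15%), and the E-box that the muscle factor MYOD prefers, which reads CAGCTG (16.3%). The median window held 52.7% G and C and 7 CpG. The Fbrs window held 62.0% (percentile 76.2) and 19 CpG (percentile 73.5). The Prr14 window was nearer the middle, at 55.0% (percentile 57.6) and 12 CpG (percentile 62.1).

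Every PSME3 list held a peak immediately before the Fbrs start site. In the pooled cycling list it ran from chr7:127477459-127479228, 1770 bp, and began 691 bp beyond the end of Prr14, so the peak lay in the space between the genes and over the beginning of Fbrs and did not touch the span of Prr14. In cycling replicate 1 it ran from 127477779 to 127479141, in replicate 2 from 127477753 to 127479099 and in replicate 3 from 127477730 to 127479331. The upstream edges of these 3 peaks were within 49 bp of each other, and the downstream edges within 232 bp. On day 2 it ran from 127478186 to 127478760 in fresh crosslinked cells, 127478166 to 127478758 in fresh native cells, 127478179 to 127478919 in frozen crosslinked cells and 127477970 to 127478981 in frozen native cells. Each day 2 peak lay inside the interval shared by the 3 cycling peaks.

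The bases common to all 7 PSME3 libraries formed a core of 573 bp at chr7:127478186-127478758, from 772 to 200 bp before the Fbrs start site, which includes the first annotated base of Fbrs. The core of the 3 cycling libraries alone was 1321 bp long and reached 141 bp past the start site. The centre of the peak lay 427.5 to 532 bp before the start site in cycling libraries and 409 to 496 bp before it on day 2, and these ranges overlapped. Of the 250 bases printed for Fbrs, the peak covered all 250 in the 3 cycling replicates and in frozen native day 2 cells, 212 in frozen crosslinked, 53 in fresh crosslinked and 51 in fresh native cells. The core therefore held the first 51 printed bases and 1 of the 5 copies of TTAAAGGG.

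**Figure D1:**
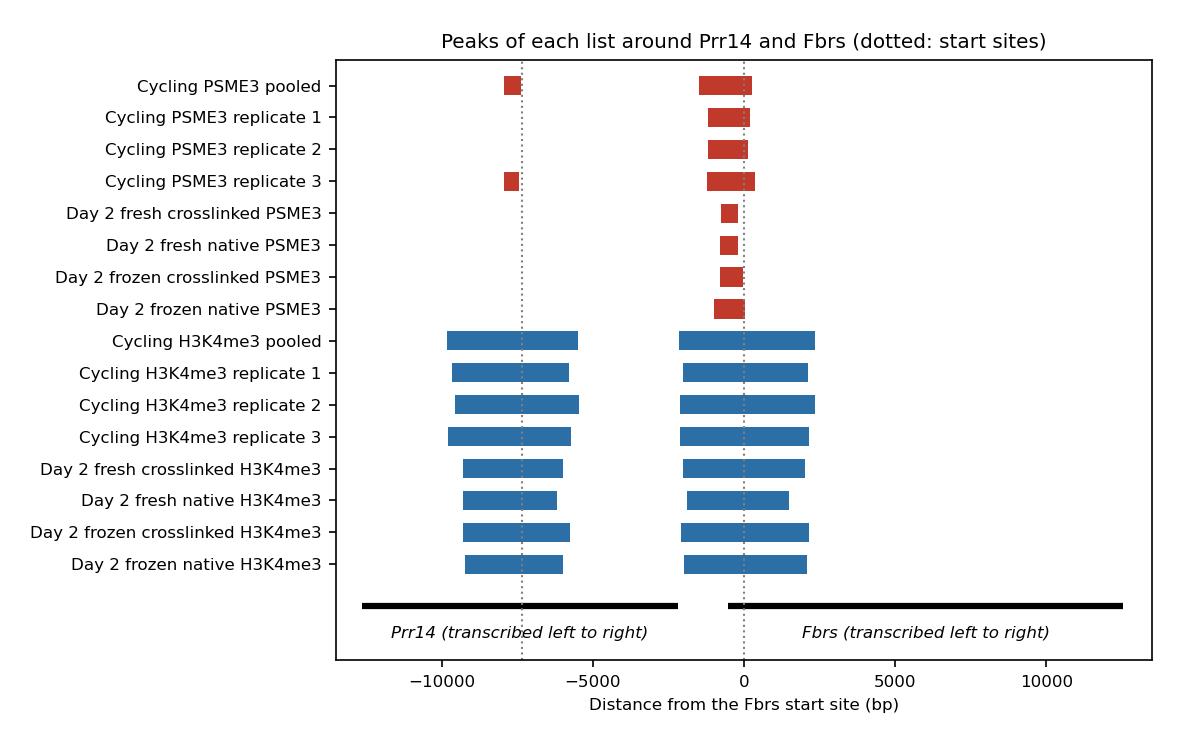
Peaks of every list within 5 kb of Prr14 and Fbrs, drawn to scale against the distance from the Fbrs start site in bp, with PSME3 in red, H3K4me3 in blue, the gene spans in black and both start sites dotted. All 8 PSME3 lists have a peak just before the Fbrs start site, the pooled list and replicate 3 also have one before the Prr14 start site, and all 8 H3K4me3 lists have a broad peak over each start site.

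PSME3 peak width at Fbrs was 1363, 1347 and 1602 bp in cycling replicates 1, 2 and 3, with a mean of 1437 ± 143 bp (SD, n = 3). It was 575 bp in fresh crosslinked, 593 bp in fresh native, 741 bp in frozen crosslinked and 1012 bp in frozen native day 2 cells. In bp the widths of the 2 stages did not overlap, and the widest day 2 peak was that of the preparation handled like the cycling cells. Relative to the median width of their list they overlapped, at 5.66, 4.60 and 4.04 times in cycling replicates 1, 2 and 3 and at 2.00, 1.96, 2.89 and 4.17 times in fresh crosslinked, fresh native, frozen crosslinked and frozen native cells. These widths come from the lists that chose the site, so they are given with no test. How many other PSME3 peaks were narrower in bp in every day 2 library was not counted.

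PSME3 fold enrichment at Fbrs was 16.6, 16.5 and 23.4 in cycling replicates 1, 2 and 3, with a mean of 18.8 ± 3.99 (SD, n = 3), and 20.1 in the pooled list. These values were 3.61, 4.06 and 6.47 times the median of their own list in the replicates and 6.89 times in the pooled list. The site ranked first by fold enrichment in replicates 2 and 3, 1.63 and 1.48 times the highest other peak, and first in the pooled list, 2.29 times the highest other. In replicate 1 it ranked second of 1200 peaks, at 0.860 times a peak of 151 bp inside Jarid2 (chr13:44869570-44869720, fold enrichment 19.3) that had no H3K4me3 in that replicate. Jarid2 encodes a subunit of the other Polycomb repressive complex.

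On day 2 the fold enrichment was 5.67 in fresh crosslinked cells, 7.32 in fresh native cells, 10.3 in frozen crosslinked cells and 15.4 in frozen native cells. Relative to the list medians these were 2.08, 2.01, 2.36 and 3.05 times. The site was the highest of 18, 23 and 77 peaks in the first 3 of these lists, at 1.04, 1.27 and 1.33 times the highest other peak. It was the third of 186 in the frozen native list, below peaks at Camk1d (chr2:5379040-5379381, 16.9) and at Zfpm1 and Gm39269 (chr8:122281420-122281919, 15.5). The ratio to the list median was lower in every day 2 library than in every cycling replicate, in lists that held fewer peaks. How many other PSME3 peaks showed this order was not counted, so it is not read as particular to the site.

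**Figure D2:**
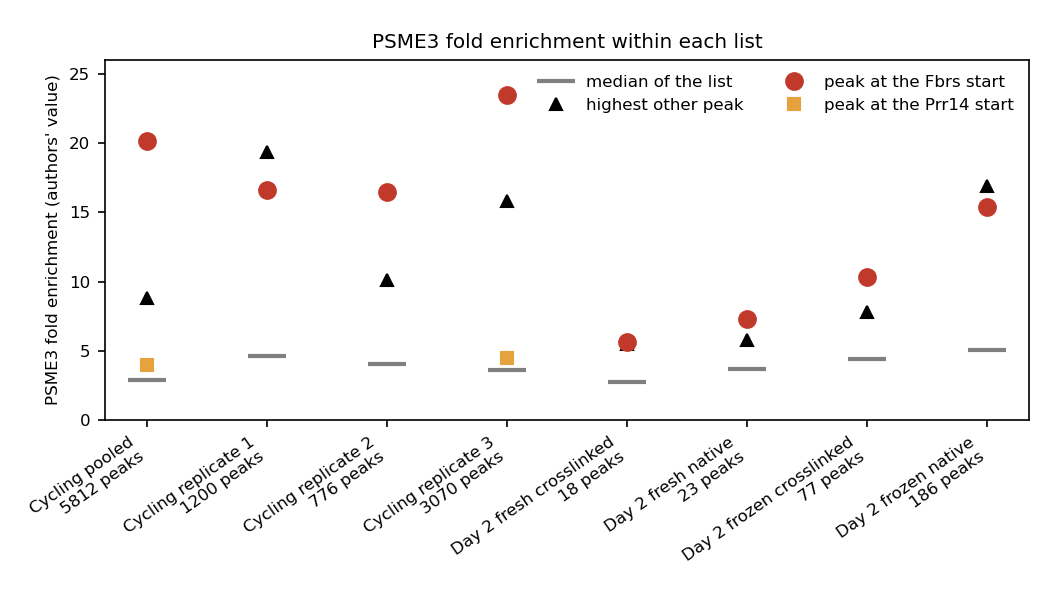
PSME3 fold enrichment, the authors' ratio over background, of the peak at the Fbrs start (red circles), the peak at the Prr14 start (orange squares), the highest other peak (black triangles) and the list median (grey bars) in the pooled cycling list and in each of 7 libraries, 1 column per list and no error bars. The red circle is above the triangle in every list except cycling replicate 1 (16.6 against 19.3) and day 2 frozen native (15.4 against 16.9).

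The place of the site depended on the measure that ranked the peaks. By the −log10 of the q-value the site ranked 9th in the pooled list (149.66), behind 8 peaks that each had a lower fold enrichment (3.62 to 8.79) and no pooled H3K4me3 peak. These lay at Rn18s-rs5 and AY036118, Lars2, Gm30821, Gm36876, Cdk8, Zc3h7a, and Cmss1 and Filip1l, or at no gene. By −log10 q it ranked 10, 9 and 10 in cycling replicates 1, 2 and 3, and 10, 13, 11 and 12 in fresh crosslinked, fresh native, frozen crosslinked and frozen native day 2 cells. By width it ranked 63 in the pooled list, 5, 4 and 37 in the replicates and between 4 and 5 on day 2. It was thus among the 10 widest peaks in every library but cycling replicate 3. In single libraries the peaks above it by −log10 q were of both kinds. H3K4me3 of the same replicate or preparation lay at 0 of 9, 3 of 8 and 1 of 9 of them in cycling replicates 1, 2 and 3, and at 9 of 9, 7 of 12, 4 of 10 and 6 of 11 in fresh crosslinked, fresh native, frozen crosslinked and frozen native cells. Their highest fold enrichment exceeded that of the site in replicate 1 (19.3) and frozen native cells (16.9).

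Presence in every library set the site apart from most PSME3 peaks. Of 5812 pooled PSME3 peaks, 11 (0.189%) had a peak in all 4 day 2 preparations and 9 (0.155%) in all 7 PSME3 libraries. Of those 9, the Fbrs peak alone overlapped a pooled H3K4me3 peak, and alone had H3K4me3 in all 7 libraries. The other 8 had pooled fold enrichments of 3.62 to 6.96, and 6 of them had H3K4me3 in 4 or fewer libraries. H3K4me3 in all 7 libraries was common on its own, at 4008 pooled PSME3 peaks (69%), and 1 pooled peak (0.0172%), the one at Fbrs, was present in all 14 libraries. This count is fixed in part by the choice of the site, which required the 3 cycling replicates.

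The 5 peaks that matched it in presence or absence in the most libraries were taken as the most similar, with ties broken by fold enrichment. A peak over Rn18s-rs5 and AY036118, ribosomal RNA sequence (chr17:39843001-39848830), matched in 13 of 14 libraries, with a pooled fold enrichment of 4.70, PSME3 in all 7 libraries and H3K4me3 in 6 of 7, though not in the pooled list. The next were peaks at Tbl2 (chr5:135149040-135149803), near Mtrf1l (chr10:5823911-5824654), at Myo6 (chr9:80164633-80165087) and at Sertad2 (chr11:20631473-20632219). Each of these 4 matched in 12 libraries and was in 2 of the 4 day 2 PSME3 lists, with pooled fold enrichments of 6.16, 5.92, 5.86 and 5.85. They are the top of 31 peaks that matched in 12 libraries.

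PSME3 at the start of Prr14 was lower in fold enrichment and listed in fewer libraries. A peak was listed in the pooled list (chr7:127471027-127471568, 542 bp, fold enrichment 4.00) and in cycling replicate 3 (chr7:127471027-127471516, 490 bp, 4.51). No PSME3 peak was listed there in cycling replicates 1 and 2 or in any day 2 preparation, which means only that none passed the authors' threshold at an unknown depth. The pooled peak ranked 211 of 5812 by fold enrichment (percentile 96.4) and that of replicate 3 ranked 251 of 3070 (percentile 91.9). It ran from 587 to 46 bp before the Prr14 start site in the pooled list and covered 205 of the 250 bases printed for Prr14, and both CCAAT motifs lay in the covered part. Presence in replicate 3 and in no other cycling replicate was a frequent pattern, found for 1815 pooled peaks (31.2%).

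Within a list, the Fbrs peak was 5.04 times as enriched as the Prr14 peak in the pooled list and 5.20 times in replicate 3, a log2 difference of 2.33 and 2.38. No other PSME3 peak lay within 5 kb of the genes in any list. The nearest pooled PSME3 peaks were 16.8 kb before Prr14, at Zfp689 (chr7:127448515-127449481, fold enrichment 3.30), and 20.5 kb after Fbrs, at Srcap (chr7:127511996-127512816, 3.07).

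H3K4me3 covered both start sites in every library, in 1 peak each. Fold enrichment at Fbrs was 17.8, 11.1 and 26.6 in cycling replicates 1, 2 and 3, and 10.1, 7.19, 13.4 and 18.6 in fresh crosslinked, fresh native, frozen crosslinked and frozen native day 2 cells. At Prr14 it was 25.3, 14.8 and 33.6 in the replicates, and 12.6, 8.72, 16.5 and 26.7 in the same order of preparations. The Prr14 peak was the higher of the pair in 7 of 7 libraries, the reverse of the order for PSME3. The log2 difference, Fbrs minus Prr14, was -0.51, -0.41 and -0.34 in the cycling replicates, with a mean of -0.42 ± 0.09 (SD, n = 3; p = 0.25, exact sign-flip test, two-sided, the smallest p that 3 replicates allow). On day 2 it was -0.32 in fresh crosslinked, -0.28 in fresh native, -0.30 in frozen crosslinked and -0.52 in frozen native cells.

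Neither start was at the top of the H3K4me3 lists. The Fbrs peak ranked 2845 of 23663 in the pooled list and between 2693 and 4656 in the cycling replicates, at percentiles of 74.2 to 91.5. The Prr14 peak ranked 441 in the pooled list and between 375 and 577 in the replicates, at percentiles of 97.0 to 99.1. On day 2 the percentiles were 69.2 to 89.0 at Fbrs and 88.1 to 98.4 at Prr14. Prr14, with the lower PSME3 fold enrichment of the pair, thus had the higher H3K4me3 fold enrichment and rank in the pooled list.

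A pooled H3K4me3 peak was present at 5441 of 5812 pooled PSME3 peaks (93.6%). Among these 5441, 1475 had a higher H3K4me3 fold enrichment than the Fbrs peak, and the highest PSME3 fold enrichment of those 1475 was 5.92, with a median of 2.96. The Prr14 peak had 270 peaks above it for H3K4me3, with a highest PSME3 fold enrichment of 4.77 and a median of 3.00. The ratio of PSME3 to H3K4me3 fold enrichment was 1.18 at Fbrs, which ranked 448 of the 5441, and 0.183 at Prr14, which ranked 3683, beside a median of 0.224. The highest PSME3 fold enrichment at any other peak with H3K4me3 that was found in all 3 cycling replicates was 6.68. The site was chosen for its pooled PSME3 fold enrichment, so the lower PSME3 values of other peaks are fixed in part by that choice.

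**Figure D3:**
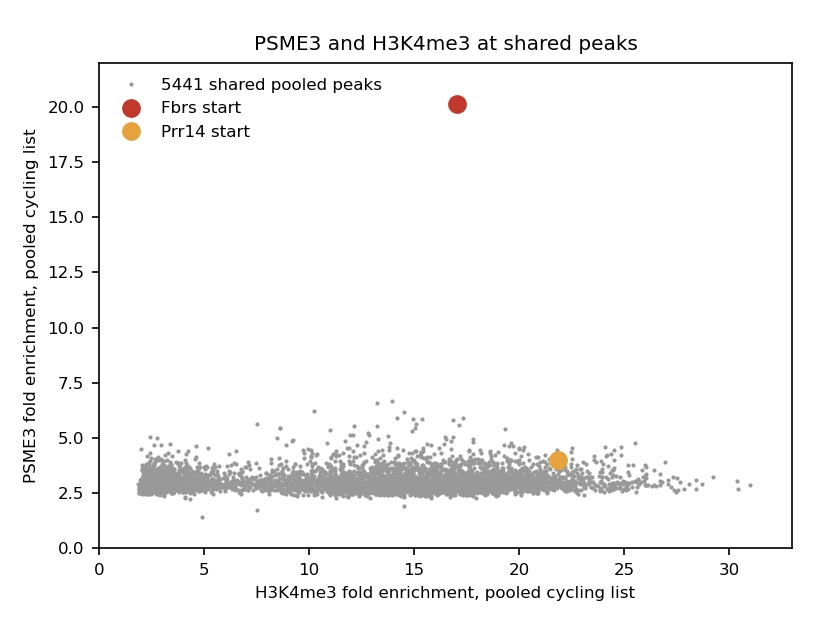
PSME3 against H3K4me3 fold enrichment at the 5441 pooled cycling PSME3 peaks that overlap a pooled H3K4me3 peak (grey points, 1 per PSME3 peak, linear axes), with the Fbrs start in red and the Prr14 start in orange. The Fbrs start (20.1 and 17.0) lies far above all other points on the PSME3 axis, whose values chose it. The Prr14 start (4.00 and 21.9) lies within them.

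PSME3 lay on the upstream side of the Fbrs H3K4me3 peak. In every PSME3 library the peak was contained in the H3K4me3 peak of the same replicate or preparation, and it took up 30.0% to 37.6% of its width in cycling cells and 14.3% to 24.9% on day 2. Its centre was 553, 645.5 and 438 bp before the H3K4me3 centre in cycling replicates 1, 2 and 3, and 296.5 to 542.5 bp before it on day 2. All 7 PSME3 centres were therefore upstream of the H3K4me3 centre. In cycling cells the H3K4me3 peak was 4145, 4486 and 4262 bp wide, and its mean of 4298 ± 173 bp exceeded the PSME3 mean of 1437 ± 143 bp by 2860 bp (SD, n = 3 each), without overlap. This too is a description, since the PSME3 lists chose the site.

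The cycling and day 2 libraries were compared for H3K4me3, which did not choose the site. The percentile of the Fbrs peak within its list was 83.9 ± 8.81 in cycling cells (SD, n = 3) and 80.3 ± 8.66 on day 2 (SD, n = 4 preparations), a difference of 3.59 (p = 0.629, exact permutation test, two-sided). The groups overlapped, and the sign of the difference turned when cycling replicate 2 (-0.17) or the fresh native library (-0.13) was left out, so no difference was resolved.

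The length covered by H3K4me3 within 5 kb of the genes was 8029, 8602 and 8328 bp in cycling replicates 1, 2 and 3, and 7326, 6460, 7780 and 7313 bp in fresh crosslinked, fresh native, frozen crosslinked and frozen native day 2 cells. The groups did not overlap. The means were 8320 ± 287 bp (n = 3) and 7220 ± 551 bp (n = 4; SD), a difference of 1100 bp (p = 0.0571, exact permutation test, two-sided, the smallest p that 3 against 4 allow).

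Most of this difference lay at Prr14. Its H3K4me3 peak was 3884, 4116 and 4066 bp wide in cycling replicates and 3301, 3108, 3530 and 3250 bp in fresh crosslinked, fresh native, frozen crosslinked and frozen native cells, a mean difference of 724.75 bp with no overlap (n = 3 and 4, p = 0.0571, exact permutation test, two-sided). The peak began 2225 to 2447 bp before the start site in cycling cells and 1880 to 1959 bp before it on day 2, without overlap. It ended 1563 to 1890 bp after it in cycling cells and 1160 to 1571 bp after it on day 2, with overlap. How many other H3K4me3 peaks had an upstream edge without overlap between the stages was not counted, so the edge is not read as particular to Prr14. At Fbrs the widths on day 2 were 4025, 3352, 4250 and 4063 bp, and the difference from the cycling mean was 375 bp with overlap (n = 3 and 4, p = 0.114, exact permutation test, two-sided). Without cycling replicate 2 the differences were 958.75 bp in covered length, 677.75 bp at Prr14 and 281 bp at Fbrs, and without the fresh native library the difference at Fbrs was 185 bp. The comparison of the single starts was chosen after the data were seen.

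The same comparison was made over other peaks. Of 9781 pooled H3K4me3 peaks with 1 peak in each of the 7 libraries, 3652 (37.3%) were wider in all 3 cycling than in all 4 day 2 libraries and 107 (1.09%) were narrower in all. The median widths of whole lists did not follow this order, at 1348 to 1844 bp on day 2 and 662 to 1784 bp in cycling cells. In bp, the median difference over these peaks was 405, and the differences at Prr14 and Fbrs were at percentiles 80.3 and 46.3. As a ratio of cycling to day 2 mean width, the median was 1.21, and the ratios were 1.22 at Prr14 (percentile 51.2) and 1.10 at Fbrs (percentile 24.3). Prr14 was thus above the middle of all peaks in bp and near it as a ratio, and Fbrs was below the middle by both, by less in bp.

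**Figure D4:**
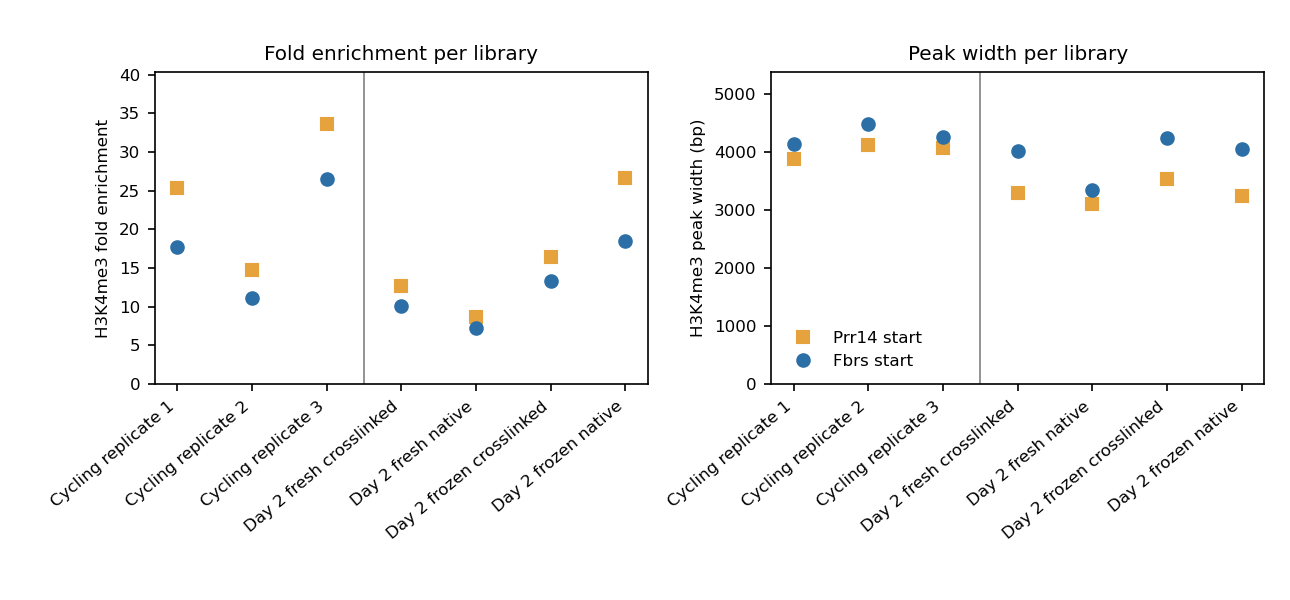
H3K4me3 fold enrichment (left) and peak width in bp (right) at the Prr14 start (orange squares) and the Fbrs start (blue circles) in 3 cycling replicates and 4 day 2 preparations, 1 point per library, with the stages parted by a line. Prr14 has the higher fold enrichment and Fbrs the wider peak in 7 of 7 libraries, and the Prr14 widths are 3884 to 4116 bp in cycling cells and 3108 to 3530 bp on day 2.

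Of 11 other protein-coding genes within 100 kb, 6 had a pooled PSME3 peak within 1 kb of their span and 10 had pooled H3K4me3. Over all 21900 protein-coding genes the shares were 21.9% for PSME3 and 60.9% for H3K4me3. The highest PSME3 fold enrichment among the 11 was 4.03, at Zfp688, a zinc finger gene. Ccdc189 and Rnf40, the latter a ubiquitin ligase of histone H2B, shared a peak of 3.66, and Zfp689 (3.30), Zfp747 (3.17) and Srcap (3.07), which encodes a chromatin remodelling ATPase, had 1 each. Zfp764, 9130019O22Rik, E430018J23Rik, Tmem265 and Phkg2 had none, and Tmem265 was also without H3K4me3. None of the 11 had PSME3 in all 3 cycling replicates (1.19% of all protein-coding genes) or in any day 2 preparation (1% of them), and a count of 0 of 11 is near those shares. By the same distance of 1 kb, Fbrs had PSME3 in all 3 cycling replicates and all 4 day 2 preparations, and Prr14 in 2 cycling replicates and 0 day 2 preparations, where the Fbrs peak itself counts for Prr14 if it begins within 1 kb of its end.

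Genes of related function were looked up by the same distance of 1 kb. For Fbrs these were its relatives Auts2 and Fbrsl1 and 9 further genes of the Polycomb complexes that hold them. PSME3 was near 4 of the 11 in the pooled list, where 21.9% of all protein-coding genes had it. These were Csnk2a1, a catalytic subunit of casein kinase 2 (3.10), Pcgf5, a Polycomb RING finger protein (2.78), and Rybp (2.76) and Yaf2 (2.66), related subunits that bind the RING proteins. Auts2 and Fbrsl1 had no PSME3 peak, and none of the 11 had one in all 3 cycling replicates (1.19% of all protein-coding genes) or in any day 2 preparation (1%). All 11 had pooled H3K4me3, against 60.9% of all.

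For Prr14 they were its relative Prr14l, the HP1 genes Cbx1, Cbx3 and Cbx5, and 5 genes of the nuclear lamina and envelope. PSME3 was near 6 of these 9, against the same 21.9%, and all 9 had pooled H3K4me3, against 60.9% of all. Lmna, which encodes lamin A and C, had 4 pooled peaks, the highest at 5.12, with PSME3 in all 3 cycling replicates and 2 day 2 preparations. Cbx5, which encodes HP1 alpha, had 1 of 3.54 and PSME3 in all 3 cycling replicates. Cbx3 (3.14) and Cbx1 (2.88) had 1 each, and Cbx3 had PSME3 in 1 day 2 preparation. The B-type lamin genes Lmnb1 (2.85) and Lmnb2 (2.53) also had 1 each, and that of Lmnb2 was at percentile 4.42 of all pooled peaks. Prr14l, Lbr and Emd had none. Over both lists, 10 of 20 genes had a pooled PSME3 peak (21.9% of all protein-coding genes), with a median top fold enrichment of 2.87, close to the median of 2.92 over all pooled peaks. PSME3 was in all 3 cycling replicates at 2 of 20 (1.19% of all) and in any day 2 preparation at 2 of 20 (1% of all). The lists were chosen with results known and nothing particular to them is read from these shares.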

How the data were processed

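CUT&RUN peak lists of C2C12 cells were analysed: 3 cycling replicates each of PSME3 and H3K4me3, 1 library of each antibody in 4 day 2 preparations, and 2 pooled cycling lists. The tools of the authors were Trim Galore for trimming, Bowtie2 for alignment and MACS2 for peaks, which were called per library and on the cycling replicates in aggregate. The submitters' processing notes name mm10, and versions, options and the control library are not given in the sources used here. Each list has the 9 columns of a broad peak file and gives per peak a fold enrichment, which is a ratio over background computed by the authors, the deposited −log10 of the p-value and of the q-value, and a deposited score. The p-value and the score were not used. The largest q-value in any list was below 0.1. Read numbers are not part of the lists, so depth, and with it the precision of a single fold enrichment, is unknown.

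The members and all gene lists were chosen with earlier results of these data known. Positions were written 1-based. Genes and promoter windows (250 bases before and 50 after a start site) came from RefSeq for GRCm38.p6, the patch release of the same build, and exons and introns were not used here. An overlap meant 1 shared bp or more. Python 3.11.15 was used, with pandas 2.3.3 for the tables, numpy 2.4.6 for ranks and medians, scipy 1.17.1 for the tests and matplotlib 3.10.9 for the figures. Groups followed the sample labels. Tests were two-sided exact permutation tests of a difference of means or an exact sign-flip test. Nothing says that cycling replicates were separate cultures beyond the study's calling them biological replicates, and the 4 day 2 preparations were treated as 1 group although they differ in handling. The functions were tested on simulated data. Named genes were the pair, the protein-coding genes within 100 kb, relatives and partners of both proteins, and the 5 pooled PSME3 peaks that match the site in presence or absence in the most of 14 libraries.

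Whether replicate numbers pair the PSME3 and H3K4me3 libraries was checked over 19 autosomes, by correlating how each library's share of peaks on an autosome (log2) deviated from its group, which was picked once the data had been seen. Pearson r was 0.540, 0.555 and 0.275 for replicates 1, 2 and 3, all above 0.1. The crossed pairs of replicates 1 and 3 gave similar values (0.522 for PSME3 of the first with H3K4me3 of the third, 0.266 for the reverse), so only replicate 2 was told apart. Alternatives were ranking by −log10 q or width, a q-value of at most 0.01, chromosomes without the mitochondrial and unplaced sequences, an overlap covering 50% or more of the peak, distances of 1 and 10 kb, the replicate block, and each library left out.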

Additional observations from a re-analysis of the deposited data

Results flagged for a closer look

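The order of the pair differed between antibodies. The log2 difference in fold enrichment, Fbrs start minus Prr14 start, was 2.38 in the 1 PSME3 library with a peak at both starts, cycling replicate 3, and -0.52 to -0.28 in the 7 H3K4me3 libraries. The difference was positive in that PSME3 library and negative in every H3K4me3 library, which drew attention to it. The difference was not tested, since 1 PSME3 library gives no spread and the site was chosen for its PSME3 enrichment.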

How the results depend on the processing

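Of 89 alternative values, 69 kept their direction and their side of the threshold or, for ranks and counts, stayed near the main value, 18 moved and 2 reversed. For the comparisons of percentile, covered length and width no p under 0.05 was possible in any setting, so keeping a side of the threshold says nothing of their stability. Settings that only removed other peaks could not worsen a rank by fold enrichment, and a wider distance could not lower a count. Those unchanged ranks and counts say nothing of stability either, and the PSME3 ranks come from the lists that chose the site. Ranked by −log10 q in place of fold enrichment, the Fbrs site was 9th in the pooled PSME3 list, 10, 9 and 10 in cycling replicates 1, 2 and 3, and 10, 13, 11 and 12 in fresh crosslinked, fresh native, frozen crosslinked and frozen native day 2 cells. Ranked by width it was 63 in the pooled list, 5, 4 and 37 in the replicates and 5, 4, 5 and 4 in the same order of preparations. Among peaks that overlap H3K4me3, an alternative added after seeing the data, it ranked 1 in cycling replicate 1 and still 3 in frozen native day 2 cells. When 50% or more of a peak had to overlap, 1 of 7 H3K4me3 libraries counted as having a peak at the pooled PSME3 peak, because the H3K4me3 peaks are wider than that peak.

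The difference in H3K4me3 percentile reversed to -0.17 without cycling replicate 2 and to -0.13 without the fresh native library, ranged from -0.17 to 8.43 with each library left out, and was 0.835 by −log10 q in place of fold enrichment, so its size was not stable even where its direction was kept. On the same basis the difference in covered length ranged from 847 to 1287 bp, that in Prr14 width from 662 to 802 bp, that in Fbrs width from 185 to 484 bp, and that between H3K4me3 and PSME3 width from 2721 to 2961 bp. With the replicate block the last was 2860 bp as without it, and the block applied to no other comparison, since no other compared libraries with shared numbers.

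With 3 and 4 libraries a group the smallest p is 0.0571, so no test between them reaches 0.05. Depth is unknown: a peak missing from a short day 2 list and a peak below the threshold cannot be told apart, and fold enrichment set side by side from different lists carries that limit.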
